A study of Mus musculus with 7 samples.

Results

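Potassium channel genes other than those of the Kv3 (Kcnc) family were examined in nuclei and chromatin of mouse cortex. Members were all gene columns whose name starts with Kcn but not Kcnc and that held at least 50 UMIs in total over the nuclei kept, where a UMI is a molecular tag that counts 1 captured RNA molecule. Of 25871 gene columns, 92 start with Kcn, 88 of these lie outside Kcnc, and 66 reached the minimum. The nearest member inside the minimum was Kcna5 with 54 UMIs, and the nearest column outside it was Kcnd3os with 49. By role, read from their names, 19 members are voltage-gated pore subunits, 6 are silent subunits, 9 are auxiliary subunits, 11 belong to calcium- or sodium-activated channels, 12 are inward rectifiers, 8 are two-pore channels, and 1, Kcnmb4os2, is a transcript antisense to Kcnmb4.

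Potassium channels let potassium leave or enter the cell and so set the resting potential, the shape of the action potential and the rate of firing. Voltage-gated pores open on depolarization, silent subunits join Kv2 pores and change their gating, and auxiliary subunits alter how Kv1 and Kv4 pores traffic and inactivate. Inward rectifiers and two-pore channels carry currents near rest. In glia such currents are known for taking up potassium that neurons release.

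The snRNA-Seq sample held V1 nuclei of C57BL/6J mice of 6 to 10 weeks whose cortex had received an AAV9 library of candidate enhancers (PESCA), in 10 libraries that fall into 2 sets of 5. ATAC-Seq, which reads open chromatin, was available for 6 samples, 2 each of SST, PV and VIP interneurons. Their nuclei were taken from whole cortex of uninjected mice of 6 to 12 weeks that carry Sst-IRES-Cre, Pv-Cre or Vip-IRES-Cre with the SUN1-2xsfGFP-6xMYC nuclear tag used for affinity purification (INTACT). Each group is therefore defined by where its Cre driver is or was active. The study's methods describe each of these samples as nuclei of 1 animal, and the labels name no animals. The methods also describe 5 snRNA-Seq libraries for each mouse, but the labels do not say which libraries those were, so the 2 sets are not treated as animals here.

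Of 47348 barcodes, 32335 exceeded 200 UMIs outside the viral columns, with 2457 to 3629 nuclei and 2496224 to 3041931 UMIs per library and a median of 712 UMIs per nucleus. Members held 175554 of 28472133 UMIs (0.617%). Of 25866 barcode names, 5476 (21.2%) occurred in more than 1 library. Nuclei were typed from marker UMIs that include no member gene, and 9397 (29.1%) received 1 of 15 types. Nuclei with mixed or too few marker UMIs stayed without a type, and doublets were not otherwise called. There were 666 SST, 453 PV, 370 VIP and 258 NPY nuclei among interneurons. Excitatory types numbered 1924 layer 2/3, 337 layer 4, 361 layer 5 IT, 293 layer 5 PT, 88 layer 5 NP and 761 layer 6 nuclei. Non-neuronal types numbered 1542 astrocytes, 1425 oligodendrocytes, 175 OPCs (oligodendrocyte precursors), 306 microglia and 438 vascular nuclei. The broader classes, GABAergic with 2401 nuclei and excitatory with 12588, also hold nuclei that were not resolved further. Depth differed by type and was not matched between types. Median UMIs per nucleus were 1218 in PV, 885.5 in SST and 609.5 in VIP nuclei. They ran from 306 in oligodendrocytes, 310 in OPCs and 362 in astrocytes to 1663 in layer 5 PT nuclei.

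Check genes that took no part in the typing were read first. The SST, PV and VIP check lists summed to 20.7, 14.1 and 80.6 UMIs per 10000 in their own types. In NPY nuclei, Id2 reached 5.28 per 10000, but Reln was at 0.0770 and Sv2c at 0. The layer 4 check list did not separate layer 4 from layer 2/3, and the layer 5 list summed to 1.92 in layer 5 IT nuclei against 6.17 in layer 5 PT and 5.46 in layer 6. The layer 6 list summed to 1.65 in layer 6, against 1.87 in astrocytes and 1.81 in NPY nuclei. Layer names therefore describe nuclei by their gate genes, such as Rorb for layer 4, and not an independent check of the layer. A gate that required 1 more marker UMI would have dropped 45.5% of PV, 70.6% of layer 4 and 68.2% of layer 5 NP nuclei, against 10.4% of SST and 5.77% of astrocyte nuclei.

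Levels below are UMIs of a gene summed over nuclei of a type, per 10000 non-viral UMIs, with an exact 95% Poisson interval that covers counting error only. The snRNA-Seq data are 1 sample, so levels and ratios are descriptions without a test. Ratios are given where the 2 groups compared held at least 20 UMIs of the gene together, and a ratio of 2-fold or more is counted as higher or lower. Each such count stands beside the percentage of all genes past the same ratio, and describes only the members that met this minimum. UMIs are captured at transcript ends, so levels were compared between types and not between genes.

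Members together made up 46.99 UMIs per 10000 in SST nuclei, 68.12 in PV, 51.69 in VIP and 52.03 in NPY nuclei. The 6 excitatory types lay between 64.96 in layer 5 PT and 75.36 in layer 4. Non-neuronal types lay below the excitatory types, from 53.87 in OPCs through 39.76 in oligodendrocytes and 38.60 in astrocytes to 20.01 in microglia and 9.82 in vascular nuclei. Barcodes with 200 or fewer UMIs, which can hold free RNA or shallow nuclei, gave 56.9. The sums of all non-neuronal types and of SST, VIP and NPY nuclei thus lay below that of these barcodes. What they hold, and the part of free RNA in any of the levels, was not tested. Of the 44 members with at least 20 UMIs in their highest type, 10 were highest in PV nuclei, 7 in astrocytes and 5 in layer 4. Another 4 were highest in VIP nuclei, and none in SST nuclei or microglia. This minimum asks for a higher level in types with fewer UMIs, such as microglia with 174889 against layer 2/3 with 2605161. Kcnk6 and Kcnn4 were highest in microglia but held only 13 and 10 UMIs there. The share of all genes highest in each type is not given, so these counts are no result about the members. The 10 members with the most UMIs, among them Kcnh7, Kcnj3, Kcna2, Kcnq3, Kcnh1, Kcnj9, Kcnf1, Kcnk1 and Kcnq5, held 53.9% of all member UMIs. Kcna5, Kcnh5, Kcnj6, Kcnj14, Kcnj15 and Kcnt2 stayed at or below 0.234 in every type.

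**Figure D1:**
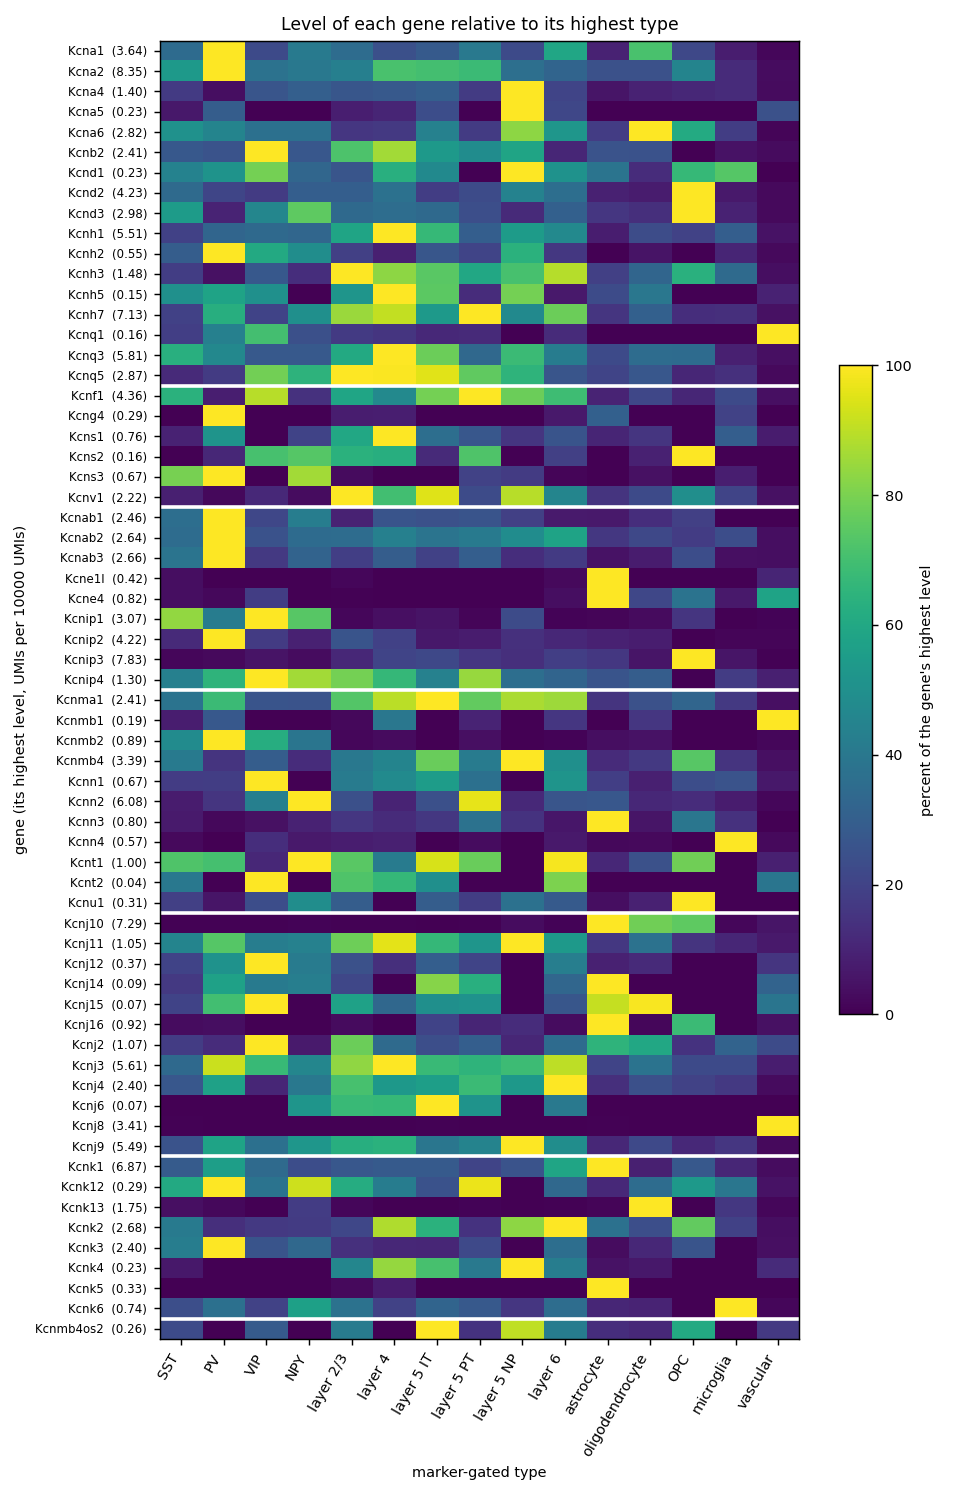
Level of the members reported here (rows, grouped by role) in the 15 marker-gated types (columns), in percent of the gene's highest level, which stands in brackets beside its name in UMIs per 10000. Different rows are bright in interneuron, excitatory and glial columns, such as Kcnip2 in PV nuclei at 4.22 UMIs per 10000, Kcnf1 in layer 5 PT at 4.36 and Kcnj10 in astrocytes at 7.29.

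Between interneuron types, PV nuclei were at least 2-fold above both SST and VIP nuclei in several members. Among them were Kcna1, a Kv1 pore, Kcnab1, Kcnab2 and Kcnab3, which assemble with Kv1 pores, and Kcnip2, which assembles with Kv4 pores. Kcnh7, Kcnk3 and Kcns1 were among them as well. The Kv1 pores Kcna6 and Kcna4 were not. Kcna6 was at 1.27 in PV, 1.42 in SST and 1.04 in VIP nuclei, and Kcna4 at 0.0515, 0.237 and 0.370. Against PV, 39 members had enough UMIs in SST nuclei, of which 5 were higher and 14 lower in SST, while 6.58% of all genes were higher and 6.92% lower. The median log2 ratio of SST to PV was -0.71 over these members and -0.07 over all genes. PV against VIP gave 14 members higher and 8 lower of 40, with 16.2% and 8.8% of all genes, and SST against VIP gave 6 higher and 8 lower of 39, with 12.5% and 6.84%. The 3 comparisons share nuclei, so their counts are not separate observations.

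Kcna1 and Kcna2 encode Kv1.1 and Kv1.2, low-threshold channels of axons. Kcna2 was at 8.35 (7.62 to 9.12) in PV nuclei, with 6.58, 8.10 and 12.4 as the lowest, median and highest library. In SST nuclei Kcna2 was at 4.48, with libraries at 2.38, 4.86 and 5.56, and in VIP nuclei at 3.15, with libraries at 1.55, 3.08 and 4.38. The PV libraries therefore did not overlap those of SST or VIP, although the ratio of PV to SST stayed under 2-fold at 1.86. Kcna1 was at 3.64 (3.17 to 4.16) in PV nuclei, 1.27 in SST and 0.814 in VIP nuclei. The ratio of PV to SST was 2.86-fold and that of PV to VIP 4.47-fold for Kcna1, and PV was above SST in 10 of 10 libraries.

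The Kvβ subunits Kcnab1, Kcnab2 and Kcnab3, which bind Kv1 pores from the cytoplasm, shared this order. Kcnab1 was at 2.46 in PV nuclei (libraries at 1.66, 2.59 and 2.97), 0.888 in SST (0.317, 0.946 and 1.59) and 0.518 in VIP nuclei. Kcnab2 was at 2.64 in PV, 0.932 in SST and 0.666 in VIP nuclei, and Kcnab3 at 2.66, 1.02 and 0.444. PV nuclei were 2.61- to 2.84-fold above SST for these 3 genes and 3.97- to 5.99-fold above VIP. Of the KChIP subunits of Kv4 channels, Kcnip2 had the widest step. It was at 4.22 (3.71 to 4.79) in PV nuclei, with libraries at 1.89, 3.64 and 6.38. In SST nuclei Kcnip2 was at 0.503, with libraries at 0, 0.522 and 0.906, and in VIP nuclei at 0.740. Every PV library was above every SST library, and PV was 8.39-fold above SST and 5.71-fold above VIP for Kcnip2.

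Kcnip1, another KChIP, went the other way among interneurons. It was at 3.07 in VIP nuclei (libraries at 2.03, 2.92 and 5.30), 2.58 in SST (0.951, 2.62 and 4.02) and 1.29 in PV nuclei (0.580, 1.43 and 1.68). Kcnip1 was 2.38-fold higher in VIP than in PV nuclei without overlap of libraries, and its ratio of SST to PV lay just under the 2-fold limit, with SST above PV in 9 of 10 libraries. Kcnd3, the Kv4.3 pore these proteins bind, was at 1.63 in SST, 1.37 in VIP, 2.23 in NPY and 0.292 in PV nuclei. Its ratio of SST to PV was 5.58-fold (3.33 to 9.92), with SST above PV in 9 of 10 libraries. In SST nuclei Kcnd3 differed between library sets, at 1.03 in set 1 and 2.20 in set 2.

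Among silent subunits, Kcnf1 (Kv5.1), a partner of Kv2 pores, was at 2.78 (2.40 to 3.21) in SST nuclei, with libraries at 1.90, 2.94 and 3.87. In PV nuclei Kcnf1 was at 0.361, with libraries at 0, 0.280 and 0.912, and in VIP nuclei at 3.89, with libraries at 1.86, 4.31 and 5.27. Kcnf1 was thus 7.72-fold (4.90 to 12.8) higher in SST and 10.8-fold higher in VIP than in PV nuclei, without overlap of libraries. Kcns3 (Kv9.3) was at 0.670 in PV nuclei with 39 UMIs and at 0.533 in SST nuclei with 36 UMIs. VIP nuclei held 0 UMIs of Kcns3, which allows a level of up to 0.111. SST nuclei were therefore at least 4.80-fold and PV nuclei at least 6.03-fold higher than VIP nuclei for Kcns3, taking 3 UMIs over the VIP nuclei as the floor. Kcns1 was also at 0 in VIP nuclei, and at 0.395 in PV and 0.0740 in SST nuclei. Kcng4, a further silent subunit, held 17 UMIs in PV nuclei and 0 in SST and VIP nuclei, under the minimum for a ratio.

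VIP nuclei differed from SST and PV nuclei in other pores. Kcnq5 (Kv7.5), a pore of the M-current that limits repetitive firing, was at 2.26 in VIP nuclei, with libraries at 1.02, 2.37 and 3.11. It was at 0.340 in SST nuclei, with libraries at 0, 0.326 and 0.634, and at 0.498 in PV nuclei, so that Kcnq5 was 6.63-fold higher in VIP than in SST and 4.53-fold higher than in PV. NPY nuclei, at 1.85, were close to VIP nuclei for Kcnq5. Kcnq3 (Kv7.3), which joins the same current, was at 3.66 in SST nuclei and 1.63 in VIP nuclei, 2.25-fold higher in SST, above VIP in 10 of 10 libraries, with NPY nuclei at 1.62 for Kcnq3. Kcnb2 (Kv2.2) was at 2.41 in VIP nuclei, 0.666 in SST and 0.618 in PV nuclei. Kcnj2 (Kir2.1), an inward rectifier, was at 1.07 in VIP nuclei with 29 UMIs, 0.192 in SST and 0.137 in PV nuclei. VIP was 5.58-fold above SST and 7.81-fold above PV for Kcnj2, in 10 of 10 libraries.

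Kcnn2 (SK2), a channel that opens on calcium and slows firing after spikes, was at 6.08 (5.17 to 7.11) in NPY nuclei, with libraries at 3.85, 5.48 and 10.4. It was at 2.63 in VIP nuclei (libraries at 1.39, 2.73 and 4.53), 0.927 in PV and 0.459 in SST nuclei (libraries at 0, 0.385 and 1.20). VIP libraries lay above SST libraries without overlap, 5.73-fold in sum, and the NPY and VIP libraries overlapped for Kcnn2. Kcnt1 (Slack), a sodium-activated channel, was at 0.725 in SST, 0.704 in PV and 1.00 in NPY nuclei. VIP nuclei held 3 UMIs of Kcnt1, a ratio of SST to VIP of 6.53 with a counting interval of 2.11 to 32.8. Kcnk3 (TASK-1), a pH-sensitive leak channel, was at 2.40 in PV nuclei, 1.02 in SST and 0.629 in VIP nuclei. Kcnj3 (Kir3.1), a channel gated by G proteins, was at 5.15 in PV nuclei, with libraries at 2.37, 5.39 and 6.15, and at 1.92 in SST nuclei, with libraries at 1.05, 1.94 and 2.7. PV was above SST in 10 of 10 libraries for Kcnj3, at a ratio of 2.68. Kcnh7 (Kv11.3), the member with the most UMIs, was at 4.46 in PV, 1.38 in SST and 1.44 in VIP nuclei.

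**Figure D2:**
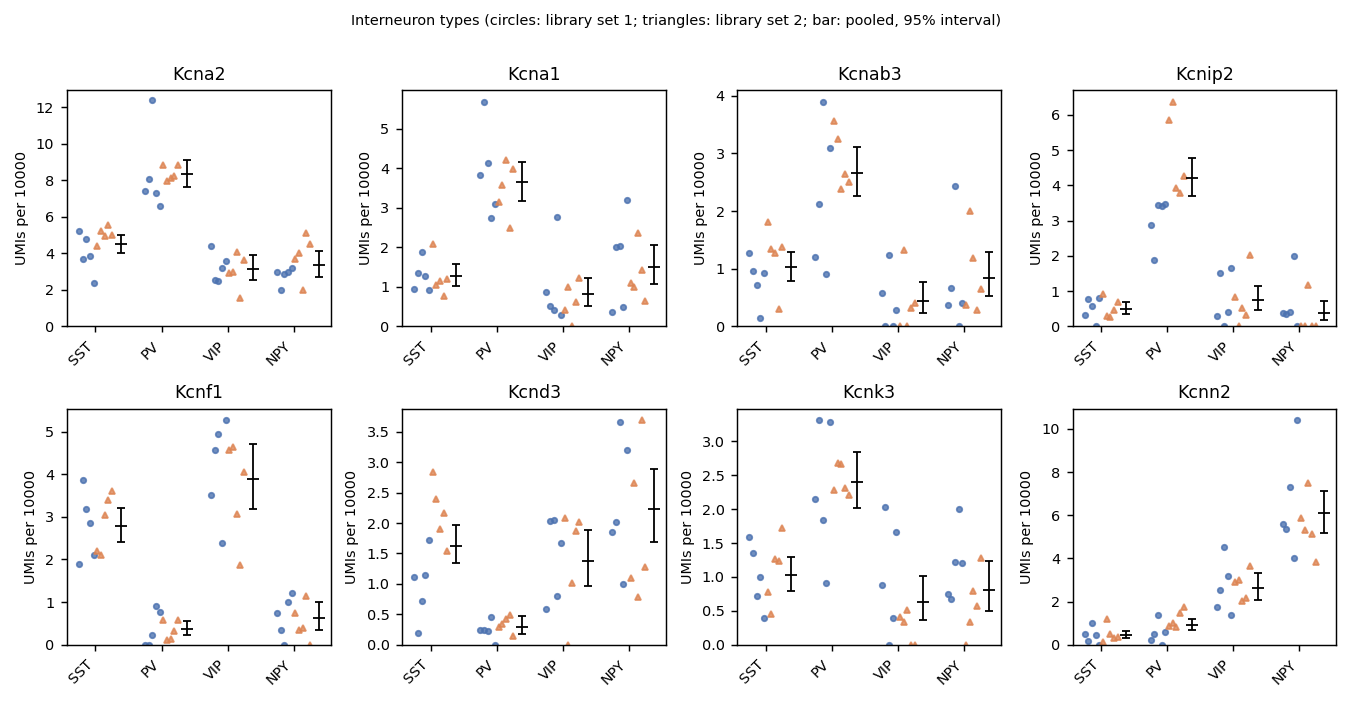
Level in UMIs per 10000 (vertical axis, from 0) of 8 members in SST, PV, VIP and NPY nuclei. Circles and triangles are libraries of sets 1 and 2, and the bar is the summed level with its 95% counting interval. PV points lie above SST points for Kcna2, Kcna1 and Kcnip2 and below them for Kcnf1, while Kcnn2 is highest in NPY nuclei at 6.08.

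Set against the excitatory class, interneurons as a whole had 12 members higher and 13 lower of 63 with enough UMIs, where 7.43% of all genes were higher and 9.86% lower. Kcnip1, Kcnmb2 and Kcns3 had the 3 highest ratios. Kcnip1 was at 2.05 in GABAergic and 0.0651 in excitatory nuclei, a ratio of 31.5 (25.2 to 39.7). Kcnmb2, a BK channel subunit that inactivates the current, was at 0.537 against 0.0175, a ratio of 30.7. Kcns3 was at 0.507 against 0.0238, a ratio of 21.3. GABAergic libraries lay above excitatory libraries without overlap for Kcnip1, Kcnmb2 and Kcns3. Kcnab1, Kcnab3, Kcnip2 and Kcnk3 were also higher, at 3.32-, 2.73-, 2.50- and 3.36-fold, and these had their highest interneuron level in PV nuclei.

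On the excitatory side, Kcnv1 (Kv8.1), a silent subunit, was at 1.81 in excitatory nuclei, with libraries at 1.69, 1.83 and 1.91. In GABAergic nuclei Kcnv1 was at 0.172, with libraries at 0.0373, 0.195 and 0.316, so that it was 10.5-fold lower there. Kcnh3 (Kv12.2) was at 1.38 in excitatory and 0.232 in GABAergic nuclei, 5.94-fold lower in the latter. Kcnip3 (calsenilin, or DREAM) was at 1.27 and 0.228, 5.56-fold lower. Kcnh1 (Kv10.1) was at 3.64 and 1.59. Libraries of the 2 classes did not overlap for Kcnv1, Kcnh3, Kcnip3 or Kcnh1. The excitatory class summed to 68.05 and the GABAergic class to 56.50 member UMIs per 10000, and the median log2 ratio of GABAergic to excitatory nuclei was -0.23 over members and -0.02 over all genes.

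Among excitatory types, layer 6 was compared with layer 2/3. Of 47 members, 4 were higher and 10 lower in layer 6, beside 3.67% and 10.1% of all genes. The 4 higher were 3 two-pore channels and 1 voltage-gated pore, and the 10 lower came from 5 kinds, among them 3 silent subunits, 3 voltage-gated pores and 2 auxiliary proteins. Kcnk2 (TREK-1), a two-pore channel that responds to stretch and lipids, was at 2.68 (2.37 to 3.02) in layer 6, with libraries at 1.69, 2.33 and 4.32. It was at 0.568 in layer 2/3, with libraries at 0.319, 0.544 and 0.772, so that Kcnk2 was 4.72-fold higher in layer 6 without overlap. Kcnk1 (TWIK-1) was at 4.03 in layer 6 and 1.85 in layer 2/3, with layer 6 libraries at 2.13, 4.16 and 5.18 and layer 2/3 libraries at 1.54, 1.86 and 2.04. Kcnk3 was 2.6-fold and Kcna6 (Kv1.6) 3.36-fold higher in layer 6, in 10 of 10 libraries each.

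In the opposite direction, Kcnb2 was at 1.74 in layer 2/3, with libraries at 1.31, 1.65 and 2.47, and at 0.257 in layer 6, with libraries at 0, 0.239 and 0.640. Kcnq5 was at 2.87 in layer 2/3, with libraries at 1.89, 3.02 and 3.34, and at 0.761 in layer 6, with libraries at 0.293, 0.814 and 1.37. The libraries did not overlap, and Kcnb2 was 6.75-fold and Kcnq5 3.77-fold lower in layer 6. Kcnv1 was at 2.22 in layer 2/3 and 1.01 in layer 6, 2.20-fold lower. Kcnj2, Kcnip2 and Kcnip4 were lower in layer 6 by 2.22-, 2.37- and 2.47-fold, and in 10 of 10 libraries.

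Layer 4 nuclei had 3 of 47 members higher and 3 lower than layer 2/3, beside 3.44% and 9.36% of all genes. When all nuclei were assigned by likelihood, 17 members were past 2-fold in place of these 6. The share of all genes under that assignment is not given, so the 17 cannot be set against a background. Kcnk2 was at 2.36 in layer 4, with libraries at 0.865, 2.52 and 3.22, a ratio of 4.16 to layer 2/3 without overlap. Kcnab1 was 2.73-fold higher in layer 4, in 7 of 10 libraries, and Kcnd1 2.40-fold higher but in 4 of 10 libraries. With all nuclei assigned by likelihood Kcnd1 turned, at 0.0667 in layer 4 and 0.0753 in layer 2/3. Kcns1 (Kv9.1) was at 0.763 in layer 4 and 0.457 in layer 2/3, and Kcnh1 at 5.51 and 3.21, both under 2-fold. Layer 5 PT nuclei, which project out of the cortex, had Kcnn2 at 5.87 (5.23 to 6.56), with libraries at 3.93, 6.02 and 7.79, against 1.5 in layer 2/3 with libraries at 1.17, 1.54 and 1.96. The libraries of the 2 types did not overlap. Kcnf1 was at 4.36 and Kcnh7 at 7.13 in layer 5 PT. Layer 5 IT nuclei were read for Kcnv1, at 2.12, and Kcnq5, at 2.74. The 88 layer 5 NP nuclei had Kcnj9 (Kir3.3) at 5.49 (4.03 to 7.30) and Kcnmb4 at 3.39 with 29 UMIs, and with 1 more marker UMI required Kcnmb4 was at 1.51. Kcnk4 (TRAAK) was at 0.107 in layer 2/3, below 0.197 in layer 4 and 0.166 in layer 5 IT. Kcns2 (Kv9.2) was at 0.0998 in layer 2/3, beside 0.0984 in layer 4 and 0.113 in layer 5 PT, and at 0.0611 in layer 2/3 of the library set numbered 2.

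**Figure D3:**
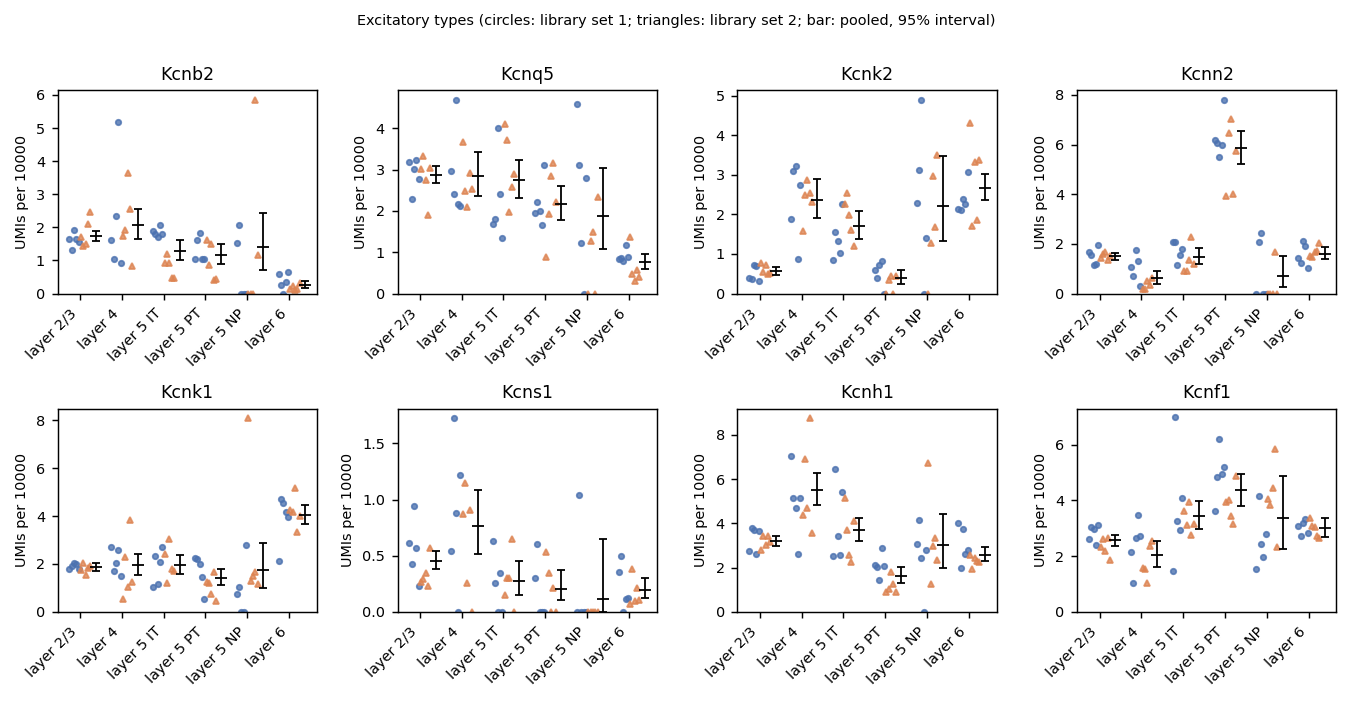
Level in UMIs per 10000 (vertical axis, from 0) of 8 members in the 6 excitatory types, with libraries of set 1 as circles, of set 2 as triangles, and the summed level with its 95% counting interval as a bar. Kcnk2 is at 2.68 in layer 6 and 0.568 in layer 2/3, Kcnb2 and Kcnq5 have the reverse order, and Kcnn2 is highest in layer 5 PT at 5.87.

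In each glial and vascular type, more members lay at least 2-fold below excitatory nuclei than above them, and a few reached high levels. Astrocytes had 9 members higher and 38 lower than excitatory nuclei among 65, beside 17.7% and 27.3% of all genes. Oligodendrocytes had 5 higher and 38 lower of 63, beside 12.6% and 25% of all genes. OPCs had 9 higher and 16 lower of 62, beside 17.9% and 11% of all genes, and the other 37 were not called. These 37 include members with 0 UMIs in OPCs, which allows a level of up to 0.470, so not all of them are known to lie within 2-fold. Microglia had 6 higher and 31 lower of 62, beside 18.5% and 24.8% of all genes. Vascular nuclei had 6 higher and 44 lower of 64, beside 19.6% and 33.2% of all genes. Some members counted as higher rest on few UMIs. In microglia Kcng4 and Kcns3 were at 0.0572 and Kcnj10 at 0.114, below the 0.172 that 0 UMIs allow there. In OPCs Kcnn3 and Kcnu1 were at 0.313, below 0.470. Kcnj10 in vascular nuclei was at 0.403, below its level of 1.42 in barcodes with 200 or fewer UMIs. Of the 19 voltage-gated pores, 14 were lower in astrocytes, 12 in oligodendrocytes, 6 in OPCs, 13 in microglia and 17 in vascular nuclei. Kcna2 was at 2.06 in astrocytes, below its level of 3.69 in barcodes with 200 or fewer UMIs.

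Kcnj10 (Kir4.1), the inward rectifier of potassium uptake in glia, was at 7.29 (6.74 to 7.88) in astrocytes, with libraries at 6.54, 7.27 and 8.53. In oligodendrocytes Kcnj10 was at 5.71, with libraries at 4.63, 5.81 and 6.43. In OPCs Kcnj10 was at 5.48 with 35 UMIs, and at 2.53 when nuclei needed more than 500 UMIs. Excitatory nuclei were at 0.0455 and barcodes with 200 or fewer UMIs at 1.42 for Kcnj10. Astrocytes were thus 160-fold (124 to 210), oligodendrocytes 125-fold and OPCs 120-fold above excitatory nuclei for Kcnj10, while microglia held 2 UMIs. Kcnj16 (Kir5.1), which pairs with Kir4.1, was at 0.922 in astrocytes and 0.0462 in excitatory nuclei, a ratio of 19.9. Kcnk1 was at 6.87 in astrocytes, with libraries at 5.15, 6.62 and 10.5, and at 2.28 in excitatory nuclei, with libraries at 2.09, 2.25 and 2.51. Its libraries did not overlap, and Kcnk1 was at 4.53 in astrocytes with more than 500 UMIs.

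Astrocytes also had Kcnn3 (SK3) at 0.798, a ratio of 6.55. Kcne4, Kcne1l and Kcnk5 rested on 73, 37 and 29 UMIs in astrocytes. Over all nuclei kept, Kcne1l held 63 and Kcnk5 held 74 UMIs. Without their UMIs in astrocytes, Kcne1l and Kcnk5 would have missed the minimum for members. Their place among the members counted as higher in astrocytes thus depends on the astrocyte UMIs themselves. Kcne4 was at 0.820 and 83.7-fold above excitatory nuclei, Kcne1l at 0.416 and 98.9-fold, and Kcnk5 at 0.326 and 46.5-fold, with intervals of 46.8 to 161, 41.4 to 287 and 22 to 107. In library set 1 Kcnk5 was at 0.190 and in set 2 at 0.524. Without the 5% deepest nuclei Kcnk5 in astrocytes was at 0.183, and as a mean over nuclei at 0.199.

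Oligodendrocytes had Kcnk13 (THIK-1) at 1.75 (1.45 to 2.09), with libraries at 0.970, 1.76 and 2.30, and excitatory nuclei at 0.0259, a ratio of 67.4 without overlap. Kcna6 was at 2.82 in oligodendrocytes, a ratio of 3.35, and Kcna1 was at 2.6. OPCs had Kcnip3 at 7.83 (5.81 to 10.3), with libraries at 2.28, 7.96 and 11.6, above excitatory nuclei at 1.11, 1.30 and 1.38, a ratio of 6.18. Kcnd2 (Kv4.2) was at 4.23 in OPCs, but at 1.82 in set 1 and 6.79 in set 2. Kcnd3 was at 2.98 in OPCs, a ratio of 2.98. The 175 OPC nuclei held few UMIs in total, and Kcna4, Kcnab2, Kcnn1, Kcnn2 and Kcnn3 turned direction in OPCs when nuclei needed more than 500 UMIs.

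Vascular nuclei were marked by Kcnj8 (Kir6.1), the pore of the vascular KATP channel. It was at 3.41 (2.99 to 3.87) with 237 UMIs, with libraries at 0.974, 3.76 and 5.07, and excitatory nuclei held 7 UMIs of Kcnj8. The ratio was 695 with a counting interval of 332 to 1748, and Kcnj8 libraries did not overlap. Kcne4 was at 0.475 in vascular nuclei, Kcnmb1 at 0.187 with a ratio of 8.09, and Kcnq1 at 0.158 with a ratio of 10.3. Kcnq1 held 57 UMIs over all nuclei kept, 11 of them in vascular nuclei. Without its vascular UMIs, Kcnq1 would have missed the minimum for members. In microglia Kcnh1, named for its ratio to other types among members with at least 20 UMIs, was at 1.66, below the median of the other types and below its level of 2.29 in barcodes with 200 or fewer UMIs, and it was at 0.587 when all nuclei were assigned by likelihood. Kcnn4 (SK4) had 10 UMIs in microglia, a level of 0.572 and a ratio of 22.7 to excitatory nuclei, and Kcnk6 (TWIK-2) had 13 UMIs, a level of 0.743 and a ratio of 2.90. Kcnn4 was found in 4 and Kcnk6 in 5 of the 10 libraries of microglia.

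**Figure D4:**
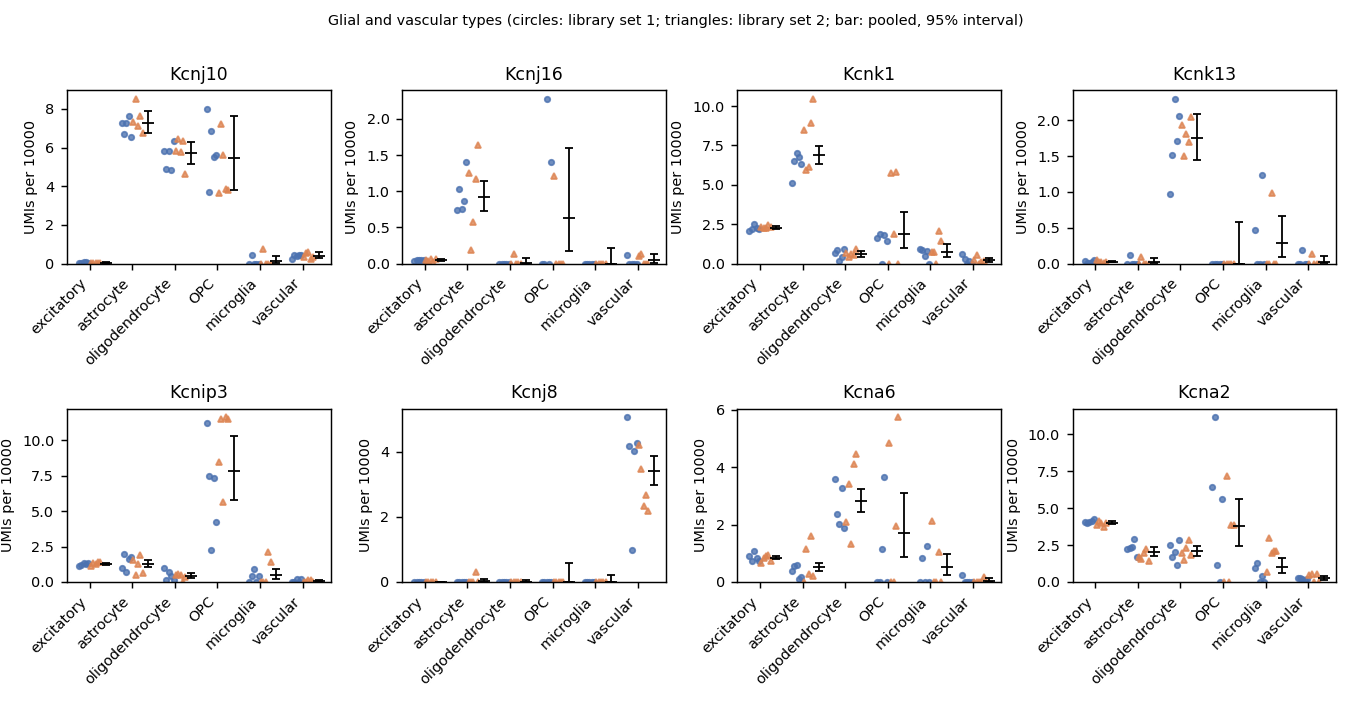
Level in UMIs per 10000 (vertical axis, from 0) of 8 members in excitatory, glial and vascular nuclei, with libraries of set 1 as circles, of set 2 as triangles, and the summed level with its 95% counting interval as a bar. Kcnj10 is high in astrocytes, oligodendrocytes and OPCs, Kcnk13 in oligodendrocytes at 1.75, Kcnip3 in OPCs at 7.83 and Kcnj8 in vascular nuclei at 3.41.

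The 11 other genes that work with these channels were read in the same way. They were the Kv4 partners Dpp6 and Dpp10, the HCN pacemaker channels, the KATP partners Abcc8 and Abcc9, the BK partners Lrrc26 and Lrrc55, and the Kv2 partner Amigo1. Of 7 with enough UMIs, 2 were lower in SST than in PV nuclei (6.92% of all genes were), 3 were higher and 1 lower in PV than in VIP (16.2% and 8.8% of all genes), and 1 was higher in SST than in VIP (12.5% of all genes). Of 10 in the comparison of classes, 4 were higher and 0 lower in GABAergic nuclei, against 7.43% and 9.86% of all genes. Dpp6 was at 4.05 in GABAergic and 1.58 in excitatory nuclei, a ratio of 2.57, and reached 4.23 in OPCs beside Kcnd2, Kcnd3 and Kcnip3. Abcc9, whose product pairs with the Kcnj8 pore, was at 6.29 in vascular nuclei and 0.0413 in excitatory nuclei, a ratio of 152. Of 10 partner genes against excitatory nuclei, 0 were higher and 9 lower in astrocytes (17.7% and 27.3% of all genes), 1 higher and 6 lower in oligodendrocytes (12.6% and 25%), 1 and 1 in OPCs (17.9% and 11%), 0 and 5 in microglia (18.5% and 24.8%), and 1 and 6 in vascular nuclei (19.6% and 33.2%). Hcn2 was at 0.778 in oligodendrocytes, 5.26-fold above excitatory nuclei.

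ATAC-Seq asked whether the chromatin of members differs between SST, PV and VIP interneurons. Each sample held 1801883 to 2256073 reads over 323369 reference regions. Reads of the regions in a gene or up to 2 kb before its start were summed, and 62 of 66 members were among the 15535 genes tested, all but Kcne1l, Kcnj14, Kcnj15 and Kcnj16. Values are CPM, reads scaled to a common library size, and p-values measure only the spread between these samples. Sst was at 24.9 and 27.7 CPM in SST samples against at most 3.07 elsewhere, Vip at 16.9 and 20.8 in VIP samples, and Pvalb at 37.6 and 47.3 in PV samples against 13.7 to 19.8 in the others. Markers of excitatory neurons summed to 349 to 411 CPM, beside 319 to 389 for GABAergic markers, and OPC markers to 219 to 258. Lists of astrocyte, oligodendrocyte, microglial and vascular markers summed to 489 to 611, 93.1 to 144, 294 to 353 and 190 to 223 CPM over the 6 samples. All these sums hold only markers that passed the filter on low counts, for the last 4 lists 7 of 8, 4 of 8, 5 of 8 and 6 of 7. A marker at 0 in all 6 samples could not pass it. The part of other cell types in the results was not tested. Open chromatin in bulk samples cannot tell a share of nuclei from accessibility per nucleus.

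By edgeR's quasi-likelihood test with Benjamini-Hochberg adjustment over all genes at a false discovery rate of 5%, no member was called between SST and PV, where 0.167% of all genes were called higher and 0.0966% lower. There 15 members had an unadjusted p under 0.05, and DESeq2 called 0. Kcng4 came nearest, with a log2 fold change of -1.80 and an adjusted p of 0.0530. SST replicate 1 correlated more with both PV samples (r of 0.953 and 0.951 across genes) than with SST replicate 2 (0.934). SST replicate 2 was at 0.920 with both VIP samples and at 0.917 and 0.918 with the PV samples. SST replicate 1 was at 0.874 with both VIP samples. The number of members called moved when either SST replicate was left out. Between SST and VIP, 8 members were higher and 8 lower, beside 8.84% and 7.88% of all genes, and DESeq2 called 8 members in place of these 16. Between PV and VIP, 12 were higher and 9 lower, beside 17.2% and 18.3% of all genes, and DESeq2 called 14. The shares of members were 12.9% and 12.9% for SST against VIP, and 19.4% and 14.5% for PV against VIP. Without VIP replicate 1 the SST against VIP contrast called 4 members, and without VIP replicate 2 it called 0. Without either PV or either VIP replicate the PV against VIP contrast called 9 to 11. The contrasts share samples and are given side by side. Shares of all genes called by DESeq2 or without a sample are not given, so those counts describe the processing and not the members.

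Members more open in PV or SST than in VIP included Kcnt1, Kcnk12, Kcnk5 and Kcnj8. Kcnt1 was at 57.3 and 59.6 CPM in PV, 54.5 and 47.5 in SST, and 20.2 and 20.3 in VIP samples. The PV and SST values all lay above the VIP values, with a log2 fold change for PV against VIP of 1.52 ± 0.23 (SE; edgeR adjusted p = 0.000594) and for SST against VIP of 1.32 ± 0.23 (edgeR adjusted p = 0.00300). Kcnk12 (THIK-2) was at 124 and 126 CPM in PV, 95 and 120 in SST, and 49.2 and 50.8 in VIP samples, with a log2 fold change for PV against VIP of 1.32 ± 0.19 (edgeR adjusted p = 0.000389). Kcnj8 was at 38.8 and 32.0 CPM in PV, 30.1 and 25.2 in SST, and 10.4 and 11.7 in VIP samples, 1.67 ± 0.29 (edgeR adjusted p = 0.00127). Kcnj8 RNA had 1 UMI in SST nuclei and 0 in PV and VIP nuclei, beside 237 in vascular nuclei. Kcnk5 was at 101 and 68.2 CPM in PV samples, 91.0 and 33.6 in SST, and 18.6 and 19.8 in VIP samples, 2.14 ± 0.39 (edgeR adjusted p = 0.00147). Its SST replicates lay far apart, and no UMI of Kcnk5 was found in SST, PV or VIP nuclei.

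Also higher in PV than in VIP were Kcna1, Kcnj3, Kcnj9, Kcnk13, Kcnma1, Kcnmb4, Kcnn2 and Kcns1, with log2 fold changes of 0.50 to 1.13. Kcna1, Kcnk13, Kcnma1 and Kcnn2 were higher in SST than in VIP as well, at 0.51 to 1.09. Kcna1 was at 51.5 and 59.0 CPM in PV, 77.6 and 75.7 in SST, and 31.7 and 40.2 in VIP samples. The difference between SST and PV samples did not pass the test for Kcna1 (log2 fold change of 0.47, edgeR adjusted p = 0.293), while its RNA level was highest in PV nuclei.

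Members more open in VIP included Kcnip3, Kcnj2 and Kcna2. Kcnip3 was at 53.2 and 54.7 CPM in PV, 86.3 and 80.2 in SST, and 115 and 148 in VIP samples. The groups did not overlap, with a log2 fold change for PV against VIP of -1.29 ± 0.19 (edgeR adjusted p = 0.000522) and for SST against VIP of -0.67 ± 0.18 (edgeR adjusted p = 0.0256). Kcnj2 was at 93.2 and 78.7 CPM in PV, 90.4 and 103 in SST, and 159 and 184 in VIP samples, -0.996 ± 0.17 for PV against VIP (edgeR adjusted p = 0.00118), and its RNA was also highest in VIP nuclei. Kcna2 was at 110 and 110 CPM in PV, 76.5 and 110 in SST, and 154 and 169 in VIP samples, -0.55 ± 0.18 (edgeR adjusted p = 0.0299), opposite to its RNA, which was 2.65-fold higher in PV than in VIP nuclei. Lower in PV than in VIP were also Kcna4, Kcnab2, Kcnq1, Kcnq3 and Kcns2, at -0.45 to -1.14. Lower in SST than in VIP were also Kcnab2, Kcnab3, Kcng4 and Kcnh2, at -0.54 to -1.45. Kcng4 reversed to 0.05 when only regions within 2 kb of the start were summed.

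Chromatin and RNA did not always point the same way for these genes. Of 15 members called between PV and VIP with enough UMIs for a ratio, 10 had the same direction in RNA, beside 1554 of 2707 of all called genes (57.4%). Of 11 called between SST and VIP, 6 did, beside 725 of 1189 (61.0%). Kcnn2 was 0.50 ± 0.15 higher in log2 CPM in PV than in VIP chromatin (edgeR adjusted p = 0.0213), while its RNA level was 0.353-fold as high in PV as in VIP nuclei.

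**Figure D5:**
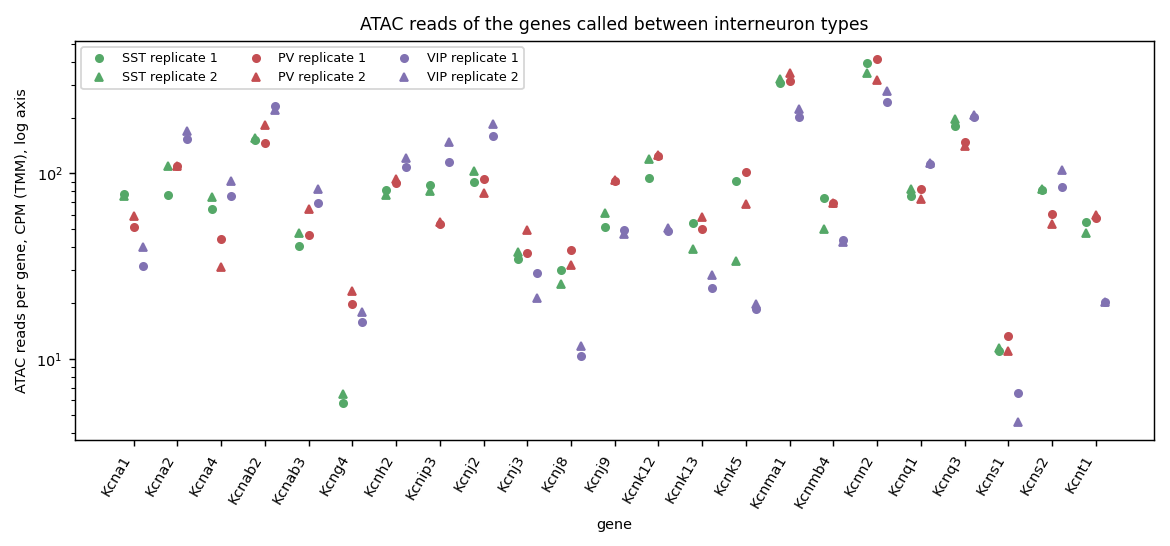
ATAC reads per gene in CPM (vertical log axis) of members called in at least 1 contrast of SST, PV and VIP samples, with circles for replicate 1 and triangles for replicate 2. VIP points lie below the others for Kcnt1, Kcnk12, Kcnk5 and Kcnj8, and above them for Kcnip3 and Kcnj2.

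Single regions were also tested, and a region can be called in a contrast where its gene is not. Members hold 1561 reference regions, and 253 passed the filter on low counts, of which 145 are in introns, 80 within 2 kb of a start and 28 in exons. By the same test over 40338 regions, 13 member regions were higher and 14 lower in SST than in PV, beside 3.96% and 4.33% of all regions. For SST against VIP there were 37 higher and 50 lower, beside 17.8% and 18.4%, and for PV against VIP 63 higher and 56 lower, beside 24.6% and 24.6%. These counts moved with the processing. The 27 member regions of SST against PV became 3 with DESeq2, 0 with no filter on low counts and 6 to 46 with a sample left out (6 without PV replicate 1, 9 without PV replicate 2, 46 without SST replicate 1). The 87 of SST against VIP became 42 with DESeq2, 41 with no filter and 56 without VIP replicate 2. The 119 of PV against VIP became 60 with DESeq2, 61 with no filter, 78 without PV replicate 1 and 73 without VIP replicate 2. Kcnip1 had regions of both directions, 7 higher and 6 lower in PV than in VIP. Kcnip1 and Kcnmb1 share 4 regions and Kcnmb4 and Kcnmb4os2 share 2, so their reads cannot be told apart.

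The central 200 bases of 6 regions are shown, 1 for each contrast and direction, with the smallest adjusted p among called member regions of that contrast and direction and with no gene taken more than once. Sequences are the reference, plus strand, of mm10 (GRCm38.p6), in lower case, with a match to TGANTCA in capitals. TGANTCA is the sequence that AP-1 factors bind, and each region was searched on both strands.
Kcnq3 (intron, chr15:66239367-66239566): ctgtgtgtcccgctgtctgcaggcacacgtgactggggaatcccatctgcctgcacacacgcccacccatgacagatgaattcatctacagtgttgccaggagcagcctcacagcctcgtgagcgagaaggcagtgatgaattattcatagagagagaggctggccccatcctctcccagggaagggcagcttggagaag
Kcnj6 (intron, chr16:94827130-94827329): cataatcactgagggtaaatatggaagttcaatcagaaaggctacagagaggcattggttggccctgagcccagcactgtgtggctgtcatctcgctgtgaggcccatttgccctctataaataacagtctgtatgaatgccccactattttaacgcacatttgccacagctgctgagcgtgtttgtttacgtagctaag
Kcnma1 (intron, chr14:23502408-23502607): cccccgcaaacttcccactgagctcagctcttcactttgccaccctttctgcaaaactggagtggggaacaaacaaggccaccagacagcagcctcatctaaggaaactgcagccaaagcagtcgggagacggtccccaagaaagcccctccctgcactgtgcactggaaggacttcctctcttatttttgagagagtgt
Kcnq5 (intron, chr1:21411591-21411790): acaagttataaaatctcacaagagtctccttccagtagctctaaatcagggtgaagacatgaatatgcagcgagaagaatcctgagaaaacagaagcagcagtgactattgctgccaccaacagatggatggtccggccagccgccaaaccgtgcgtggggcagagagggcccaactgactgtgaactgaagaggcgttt
Kcnip1 (intron, chr11:33913173-33913372): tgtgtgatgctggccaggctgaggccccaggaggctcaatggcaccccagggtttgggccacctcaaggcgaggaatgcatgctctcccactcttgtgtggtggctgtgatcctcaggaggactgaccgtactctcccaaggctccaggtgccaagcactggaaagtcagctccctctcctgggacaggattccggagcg
Kcnip3 (at the start of the gene, chr2:127522022-127522221): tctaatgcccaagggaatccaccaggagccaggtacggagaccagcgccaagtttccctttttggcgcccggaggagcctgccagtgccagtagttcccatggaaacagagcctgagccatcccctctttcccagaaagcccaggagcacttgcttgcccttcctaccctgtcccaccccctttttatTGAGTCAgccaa

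The Kcnip3 region spans its start, and reads there numbered 4 and 4 in PV, 18 and 27 in SST, and 84 and 85 in VIP samples. It was lower in PV than in VIP by a log2 fold change of -4.16 ± 0.43 (edgeR adjusted p = 3.24e-06), and the 3 types did not overlap. The Kcnq3 region had 6 and 5 reads in PV, 30 and 47 in SST, and 64 and 73 in VIP samples, with a log2 fold change for SST against PV of 2.63 ± 0.44 (edgeR adjusted p = 0.00296). The region of Kcnj6, the Kir3.2 pore, had 77 and 56 reads in PV, 24 and 23 in SST, and 68 and 81 in VIP samples, -1.63 ± 0.31 for SST against PV (edgeR adjusted p = 0.00593). The calls of these Kcnq3 and Kcnj6 regions held with DESeq2 and were lost with no filter on low counts, and that of Kcnj6 was also lost without PV replicate 1. The region of Kcnma1, the BK pore, had 9 and 8 reads in PV, 27 and 22 in SST and 0 in each VIP sample (edgeR adjusted p = 3.66e-05 for SST against VIP), so its fitted fold is not given. The Kcnq5 region had 7 and 7 reads in SST, 18 and 13 in PV, and 62 and 83 in VIP samples, -3.28 ± 0.40 for SST against VIP (edgeR adjusted p = 1.27e-05), and Kcnq5 RNA was likewise lower in SST than in VIP nuclei. The Kcnip1 region had 50 and 31 reads in PV, 22 and 20 in SST, and 5 and 3 in VIP samples, 3.49 ± 0.49 for PV against VIP (edgeR adjusted p = 4.51e-05), whereas Kcnip1 RNA was lower in PV than in VIP nuclei.

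Motif matches were counted in the central 200 bases of all 40329 tested regions with sequence and of the 253 member regions. TGANTCA occurred in 7.77% of all and 9.49% of member regions. TAATTA, a homeobox motif, occurred in 2.43% and 3.16%, and AGGTCA, a nuclear receptor motif, in 8.15% and 8.70%. These shares are descriptions, and of the 6 sequences shown only that of Kcnip3 held a match to any of these motifs.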

How the data were processed

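Members and lists were chosen with earlier results of these data known. Single nuclei were prepared with inDrops, and the authors' deposited tables hold UMI counts per nucleus on GRCm38, without normalization. For ATAC-Seq, the authors trimmed reads with Trimmomatic 0.33, aligned them to mm10 with Subread 1.4.6-p3, removed duplicates and deposited raw read counts on reference regions. Every ATAC-Seq read count column was assigned to 1 sample, while columns of region positions, names and barcodes belong to no single sample. Region positions came from the authors' binary table, whose peak calls were not used. The authors' peak lists and specificity values were not used either. Results of some members and partner genes are not reported here, though counts over all members include them.

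Barcodes exceeding 200 UMIs outside the viral columns were gated on marker genes. A class needed at least 2 class marker UMIs and 75% of them. Within GABAergic nuclei SST needed 3 Sst UMIs, PV 1 Pvalb UMI, VIP 2 Vip UMIs and NPY 2 UMIs of its list. Layers needed 2 UMIs and 66% of layer marker UMIs. UMIs were summed over nuclei per 10000. The minimum of 20 UMIs for a ratio was added to the planned design. Named genes were the 10 members with the most UMIs, the 2 members per type with the highest ratio to the median of the other types (at least 20 UMIs), and members called by ATAC-Seq. Others were named after their values were seen.

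ATAC counts were tested with edgeR 4.0.16 (TMM, filterByExpr, quasi-likelihood) in R 4.3.3 over all 6 samples, with Benjamini-Hochberg adjustment at 5%. The standard error is the log2 fold change divided by the root of the F statistic. The biological coefficient of variation was 0.141 for genes. On simulated data for SST against PV over 15535 genes, 56 of 100 genes changed by 1 on the log2 scale and 95 of 100 changed by 2 were recovered, with 4 false calls. Every simulated gene had this same coefficient in all groups. The real SST replicates correlated less with each other (r of 0.934) than those of PV (0.970) or VIP (0.973), so recovery in the real contrast was not measured. Gene positions came from GENCODE on GRCm38.p6. DESeq2 1.42.0 was an alternative. Calculations used python 3.11.15, numpy 2.4.6, scipy 1.17.1 and pandas 2.3.3.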

Additional observations from a re-analysis of the deposited data

Results flagged for a closer look

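In 3 of 35 groups of 10 library values for the named members, 1 library lay far outside the others by Dixon's test, which chance does in about 1 of 20 groups. Kcna2 in PV nuclei reached 12.4 UMIs per 10000 in library 3 of set 1, from 54 UMIs in 35 nuclei, with the next library at 8.86. Without that library Kcna2 in PV nuclei was at 8.02 in place of 8.35. Kcne1l in astrocytes reached 1.28 in library 3 of set 2, from 9 UMIs in 132 nuclei, with the next library at 0.643, and was at 0.342 without it in place of 0.416. Kcne4 in vascular nuclei reached 1.45 in library 1 of set 1, from 12 UMIs in 52 nuclei, with the next library at 0.672, and was at 0.343 without it in place of 0.475.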

How the results depend on the processing

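Of 280 recomputed levels of named members, 272 moved by less than the spread over libraries, as did 350 of 350 with a library left out. Leaving out 1 of 10 libraries, or keeping 1 set of 5, can hardly move a sum by that much, so these counts do not measure how firm the levels are. Kcnh1 in microglia went from 1.66 to 0.587 by likelihood, and Kcnmb4 in layer 5 NP from 3.39 to 1.51 with 1 more marker UMI, both within that spread. Of the 280 levels, 13 moved by more than 1.5-fold. Of 302 calls of members past 2-fold, 12 turned direction under at least 1 alternative, 6 of them in OPCs, 3 in microglia, and 1 each in Kcnmb2 in oligodendrocytes, Kcnip3 between SST and VIP and Kcnd1 in layer 4. With a limit of 1.5-fold the members past it numbered 29 for SST against PV (19 at 2-fold), 22 for SST against VIP (14), 34 for PV against VIP (22), 38 for GABAergic against excitatory (25) and 18 for layer 4 (6). With 3-fold they numbered 8, 7, 13 and 1 for SST against PV, SST against VIP, GABAergic against excitatory and layer 4, 6 for layer 6 (14), 19 for oligodendrocytes (43) and 16 for OPCs (25). Assigning all nuclei by likelihood gave 17 for layer 4, and 90.0% of typed nuclei kept their type. Shares of all genes past the limits of 1.5-fold and 3-fold or under this assignment are not given. These counts therefore show how the number of calls moves and are no result about the members.

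In ATAC-Seq, members called per gene for SST against PV (0) were 1 with no filter, 1 with regions within 2 kb of the start and 0 to 13 with a sample left out. For SST against VIP (16) they were 8 with DESeq2, 9 within 2 kb and 0 to 21 with a sample left out, and for PV against VIP (21) 9 to 27 with a sample left out. Member regions called for SST against PV (27) were 3 with DESeq2, 0 with no filter and 6 to 46 with a sample left out. For SST against VIP (87) they were 42, 41 and 56 to 111, and for PV against VIP (119) 60, 61 and 73 to 171. Same-numbered samples did not deviate together (r of 0.0441, 0.0415 and -0.161), so the numbers do not pair them. With the replicate block, calls per gene were 0, 16 and 19 and per region 22, 82 and 114. Kcng4 for SST against VIP reversed from -1.45 to 0.05 within 2 kb. A sample left alone in its group was assumed to vary like the other groups. Lowest and highest values came without PV replicate 1 (6) and SST replicate 1 (46) for regions of SST against PV, and for SST against VIP and PV against VIP regions the lowest came without VIP replicate 2. Without PV replicate 2 regions of SST against PV numbered 9, and without PV replicate 1 those of PV against VIP numbered 78. Shares of all genes or regions called under these settings are not given, so these counts describe the processing and not the members. The causes were not tested.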

Other observations

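SST nuclei were further divided by Npy. The 392 SST nuclei with at least 1 Npy UMI and the 274 without one are compared as values, without a test and within 1 sample. Kcnb2 was at 0.329 UMIs per 10000 with Npy and 1.36 without it, 4.15-fold lower with Npy, from 15 and 30 UMIs. Kcnip4 was at 0.307 with Npy and 1.09 without it, 3.55-fold lower, Kcnmb2 2.55-fold lower and Kcnmb4, at 0.987 and 2.23, 2.26-fold lower with Npy. Kcnip2 was at 0.373 with Npy and 0.773 without it, a step of 2.07-fold whose counting interval includes 1. In the other direction, Kcnk2 was at 1.36 with Npy and 0.546 without it, a ratio of 2.49 with a counting interval of 1.33 to 5.08. Kcnma1 was at 1.12 with Npy and 0.500 without it, and Kcnab1 at 1.07 and 0.500, ratios of 2.24 and 2.15. Kcnf1 (2.81 with and 2.73 without Npy), Kcnk1 (1.95 and 2.00) and Kcnab3 (1.01 and 1.05) had ratios whose counting intervals include 1. Nuclei with Npy are those in which an Npy UMI was caught, and depth was not matched between them.

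Of the viral enhancer candidates, GRE143 lies in an intron of Kcnt2. GRE152 lies within the Kcnip4 span of the GENCODE annotation, though the authors' annotation calls it intergenic, and GRE262 is intergenic and far from Kcnj2, which the authors name as its nearest gene. GRE262 gave 1.27 UMIs per 1000 viral enhancer UMIs in SST nuclei, 1.57 in PV, 1.86 in NPY, 0.570 in excitatory nuclei and 0.170 in VIP nuclei, the last from 1 UMI. Kcnj2 RNA had its highest interneuron level in VIP nuclei. GRE152 gave 2.64 in SST, 1.32 in PV, 4.75 in VIP, 1.30 in NPY and 2.12 in excitatory nuclei. GRE143 gave 5.81 in SST, 6.61 in PV, 5.60 in VIP and 6.10 (5.79 to 6.43) in excitatory nuclei, and 8.76 (6.44 to 11.6) in NPY nuclei. These intervals take viral UMIs as independent, although several can come from 1 nucleus, so they show no difference between types. None was tested. The values are shares of a type's viral enhancer UMIs, whereas the paper's enrichment uses mean expression per nucleus. GRE143 had 187 UMIs in 666 SST nuclei and 1402 in 12588 excitatory nuclei.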
